A study of Homo sapiens with 6 samples.

Results

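The genes described here are 10 of the 17039 genes in the expression table: the Hippo pathway effectors YAP1 and WWTR1 (the gene of TAZ), the DNA-binding partners TEAD1 and TEAD4, the kinases LATS1 and LATS2, the angiomotin AMOTL2, and the target genes ANKRD1, CTGF and CYR61. They were chosen by name and role, and CTGF (now CCN2) and CYR61 (now CCN1) were found by their gene identifiers. Their RNA was measured in 231-BR cells, a brain-seeking derivative of the human triple-negative breast cancer line MDA-MB-231. It was also measured in a separately obtained stock of the parental line MDA-MB-231, with 3 libraries of poly(A) RNA per line. Both lines grew in DMEM with 10% fetal bovine serum and 1% penicillin-streptomycin, and the medium of 231-BR cells also held G418 at 200 µg/mL. In the paper, 231-BR cells were a gift from another laboratory and MDA-MB-231 cells were bought from ATCC. The line, the drug and the source of the stock therefore cannot be told apart. Each group is a single cell line in culture. The replicates were run in parallel, and nothing says that they came from separate cultures, so the p-values measure only the spread between these libraries, which may be technical.

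In the Hippo pathway, the kinases MST1 and MST2 with the scaffold SAV1 activate LATS1 and LATS2, which phosphorylate YAP and TAZ together with their MOB1 cofactors. Phosphorylated YAP and TAZ are held in the cytoplasm or degraded, whereas the unphosphorylated proteins enter the nucleus, bind TEAD factors and drive genes such as CTGF, CYR61 and ANKRD1. Much of this control acts on proteins, and what was measured here is the level of RNA as FPKM, fragments scaled to transcript length and to the mapped reads of the library, which allows levels to be set side by side between genes.

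The libraries of a line resembled each other more than those of the other line, with a lowest correlation of 0.997 within lines and a highest of 0.902 between lines over the log2 values of 11124 genes. Summed FPKM was 465020 to 472007 in the 231-BR libraries and 486937 to 496420 in the MDA-MB-231 libraries, and the number of reads behind them is unknown. The 5 genes that mark MDA-MB-231 cells (VIM, CD44, EGFR, KRT8 and KRT18) were present in both lines, at 88.1 to 2566 FPKM in 231-BR libraries and 30.0 to 2325 FPKM in MDA-MB-231 libraries. Genes taken as low or absent in this cell type (ESR1, PGR, ERBB2, CDH1 and EPCAM) summed to 19.3 to 19.9 FPKM against 10.3 to 11.2 FPKM. ERBB2 (means of 9.88 FPKM in 231-BR and 4.95 FPKM in MDA-MB-231 cells) and EPCAM (8.70 and 5.06 FPKM) made up most of this and were present in both lines. ESR1 was at 0.927 and 0.79 FPKM, and PGR and CDH1 were at or under 0.07 FPKM in every library. Markers of blood, endothelial, glial, mural and liver cells, 12 of 14 in the table, summed to 2.65 to 3.29 FPKM against 0.52 to 0.71 FPKM. Most of that sum was ACTA2, at 2.35 ± 0.366 FPKM and 0.35 ± 0.078 FPKM (SD, n = 3 each), and PECAM1 was at 0.42 and 0.183 FPKM, while the other 10 genes were at or under 0.07 FPKM in every library. PTPRC, CD3E, AQP4, TMEM119 and ALB were listed at 0 in all MDA-MB-231 libraries, and the part of these markers in the results was not tested.

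The target genes ANKRD1, CTGF and CYR61 and the effector YAP1 were higher in 231-BR cells, TEAD1 and LATS1 were lower, and WWTR1, TEAD4, LATS2 and AMOTL2 did not pass the test. The changes ran from a fall of LATS1 by 0.26 on the log2 scale to a rise of ANKRD1 by 0.89, a fold of 1.85. Called here means an adjusted p under 0.05 in limma with the Benjamini-Hochberg adjustment over the 13465 genes whose mean reached 0.1 FPKM. By this rule 6 of the 10 genes (60%) were called, and 77.3% of all genes tested were. The 4 genes that rose stand beside 44.4% of all genes tested, and the 2 that fell beside 32.9%. For 7 of the 10 genes, and for 78.4% of all genes, every library of one line lay above every library of the other. None of the 10 passed the stricter criteria, under which the log2 fold change must also exceed 1 in size and each line must reach a mean of 1 FPKM, which 6.45% of all genes passed. Their log2 fold changes had a median of 0.02, beside 0.08 over all genes tested. In bulk RNA, fewer cells that express a gene and less of its RNA per cell cannot be told apart.

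**Figure D1:**
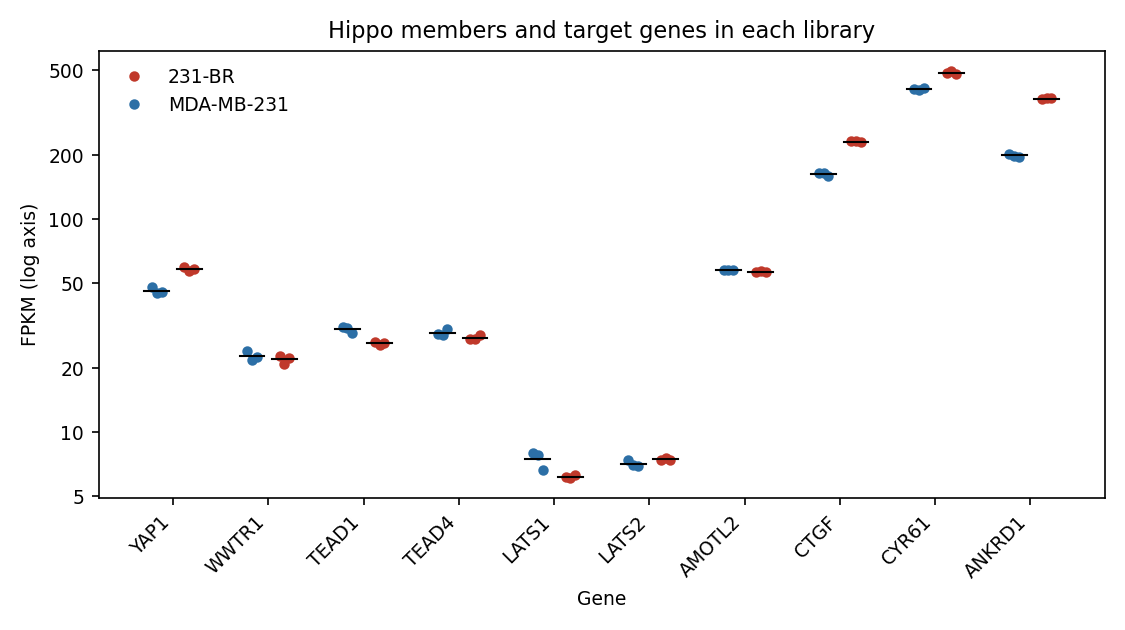
FPKM of the 10 genes in each library, on a log10 axis, with 1 point per library and a bar at the mean of each line. ANKRD1, CTGF, CYR61 and YAP1 lay higher in all 3 libraries of 231-BR cells, and TEAD1 and LATS1 lay lower.

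Of the 10 genes, ANKRD1 (chr10:90912096-90921276, minus strand) changed the most. It encodes a nuclear ankyrin repeat protein first known from cardiac muscle. Its level was 366.14, 368.77 and 370.95 FPKM in the 231-BR libraries and 203.29, 198.96 and 196.30 FPKM in the MDA-MB-231 libraries. The lines were far apart relative to the spread within each. The means were 369 ± 2.41 and 199.5 ± 3.53 FPKM (SD, n = 3 each), and the log2 fold change was 0.89 (SE 0.021, 95% interval 0.84 to 0.93, adjusted p = 2.5e-10 by limma). ANKRD1 moved from rank 344 of all 17039 genes by FPKM in MDA-MB-231 cells to rank 161 in 231-BR cells. Its absolute change was larger than that of 81.4% of the genes tested.

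CTGF (chr6:131948176-131951373, minus strand) encodes a secreted matricellular protein and is widely used as a readout of YAP and TAZ. Its level was 232.26, 232.16 and 229.97 FPKM in the 231-BR libraries and 164.14, 164.31 and 158.86 FPKM in the MDA-MB-231 libraries. All 3 libraries of 231-BR cells were higher, with means of 231 ± 1.29 and 162 ± 3.10 FPKM (SD, n = 3 each). The log2 fold change was 0.51 (SE 0.022, 95% interval 0.46 to 0.56, adjusted p = 1.3e-08 by limma), a fold of 1.42. In the GENCODE 29 annotation of GRCh38, 8.34% of the exonic bases of CTGF are shared with the antisense gene AL133346.1.

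CYR61 (chr1:85580761-85583962, plus strand), a secreted matricellular protein of the same family as CTGF, was the most abundant of the 10 genes in both lines. Its level was 488.37, 495.98 and 480.06 FPKM in the 231-BR libraries and 409.26, 403.94 and 411.53 FPKM in the MDA-MB-231 libraries. The groups did not overlap, but the relative step between them, as a log2 fold change, was smaller than for the other target genes. The means were 488 ± 7.96 and 408 ± 3.90 FPKM (SD, n = 3 each), with a log2 fold change of 0.26 (SE 0.021, 95% interval 0.21 to 0.31, adjusted p = 1.5e-06 by limma), a fold of 1.2.

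The target genes were also compared as ratios within a library, which a scaling factor applied to a whole library does not change. Quantile normalization can change such ratios and was not tried on them. The ratio of ANKRD1 to CTGF was 1.59 ± 0.019 in 231-BR cells as against 1.23 ± 0.015 in the parental cells (SD, n = 3 each). The ratio of CYR61 to CTGF was 2.11 ± 0.025 and 2.51 ± 0.068. Neither ratio overlapped between the lines, and the exact two-sided permutation p was 0.1 for each, the smallest that 3 libraries against 3 can give (0.125 after adjustment over the 5 ratios examined). Of the summed FPKM of the 3 target genes, which was 1088 ± 8.06 in 231-BR cells as against 770.2 ± 5.63 in the parental cells, ANKRD1 made up 33.9% ± 0.383 and 25.9% ± 0.286, CYR61 44.9% ± 0.410 and 53.0% ± 0.58, and CTGF 21.3% ± 0.103 and 21.1% ± 0.350.

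Promoters were examined because TEAD factors recruit YAP and TAZ to a short DNA motif, GGAATG, often beside sites of the AP-1 factors. RefSeq windows of the 250 bases before the start (GRCh38.p14) were matched for 7 of the 10 genes, with 10 windows in all. They were searched on both strands for GGAATG and for TGANTCA, a loose form of the AP-1 site in which N is any base. The AP-1 consensus has C or G at N. The letters GGAATG occurred 3 times in the window of CTGF, 2 times in that of ANKRD1, and once each in the window of YAP1 and in 1 of the 2 windows of AMOTL2. No window of WWTR1, LATS1 or LATS2 held these letters, and TEAD1, TEAD4 and CYR61 had no entry. Of all 35116 windows, 11.9% held GGAATG at least once, 0.940% at least 2 times and 0.0826% at least 3 times. Among the 13515 windows of genes with a mean of at least 1 FPKM, these shares were 9.75%, 0.673% and 0.0518%. TGANTCA occurred once in the window of ANKRD1 and once in 1 of the 2 windows of LATS1, and in 6.57% of all windows. These matches read TGATTCA in ANKRD1 and TGAATCA in LATS1, so neither fits the AP-1 consensus. The matches describe letters in these windows and do not show that a factor was bound.

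The stretch of the CTGF promoter that holds its 3 matches is shown because CTGF was the densest of these windows. It is the 120 bases from 189 to 70 before the start (chr6:131951442-131951561, read on the minus strand), with GGAATG in capitals. The last 2 matches lie 3 bases apart.
CTGF: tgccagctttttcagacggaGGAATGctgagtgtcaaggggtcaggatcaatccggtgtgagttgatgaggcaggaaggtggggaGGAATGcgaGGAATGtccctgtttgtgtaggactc

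The matches of ANKRD1, which rose the most of the 10 genes, are shown with 10 bases on either side on the minus strand, the motif in capitals. The distal GGAATG begins 220 bases before the RefSeq start (chr10:90921292-90921317), the TGANTCA match 195 bases before it (chr10:90921266-90921292) and the proximal GGAATG 128 bases before it (chr10:90921200-90921225). The TGANTCA match is labelled AP-1 below after the loose form searched, but with T at N it departs from the AP-1 consensus. GENCODE 29 places the first exon of ANKRD1 over the last 189 bases of this window, so the proximal match lies within an exon there.
ANKRD1 distal: caccaccaaaGGAATGgccctctcac
ANKRD1 AP-1: catttcttccTGATTCAcatattcagc
ANKRD1 proximal: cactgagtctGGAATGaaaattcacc

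The effectors were compared next. YAP1 (chr11:102110461-102233423, plus strand) encodes the coactivator YAP. Its level was 59.43, 57.29 and 58.56 FPKM in the 231-BR libraries and 48.14, 45.13 and 45.51 FPKM in the MDA-MB-231 libraries. All 3 libraries of 231-BR cells were higher. The means were 58.4 ± 1.08 and 46.3 ± 1.64 FPKM (SD, n = 3 each), and the log2 fold change was 0.34 (SE 0.031, 95% interval 0.27 to 0.41, adjusted p = 3.8e-06 by limma), a fold of 1.26. The antisense gene AP000942.2 shares 9.97% of the exonic bases of YAP1. Whether counting used the strand is not given in the sources used here, and without it such reads cannot be told apart. The GGAATG match of YAP1 begins 162 bases before its start, outside its exons, at chr11:102110275-102110300 on the plus strand, shown with 10 bases on either side and the motif in capitals.
YAP1: ggagtgtgcaGGAATGtagcaacttg

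WWTR1 (chr3:149517235-149736714, minus strand) encodes TAZ, the paralog of YAP. Its level was 22.69, 20.97 and 22.35 FPKM in the 231-BR libraries and 24.15, 21.95 and 22.52 FPKM in the MDA-MB-231 libraries, and the groups overlapped. With means of 22.0 ± 0.911 and 22.9 ± 1.14 FPKM (SD, n = 3 each), the log2 fold change was -0.06 (95% interval -0.16 to 0.04, adjusted p = 0.28 by limma), and its sign turned with the scaling (0.012 after scaling to the summed FPKM). The antisense gene WWTR1-AS1 shares 9.45% of its exonic bases. YAP1 therefore made up more of the pair in 231-BR cells: 72.7% ± 0.480 of the summed FPKM of YAP1 and WWTR1, which was 80.4 ± 1.97 FPKM, against 66.9% ± 0.343 of 69.1 ± 2.77 FPKM in MDA-MB-231 cells. The ratio of WWTR1 to YAP1 was 0.376 ± 0.00906 and 0.494 ± 0.00766, with no overlap of the libraries and an exact permutation p of 0.1 (0.125 adjusted).

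**Figure D2:**
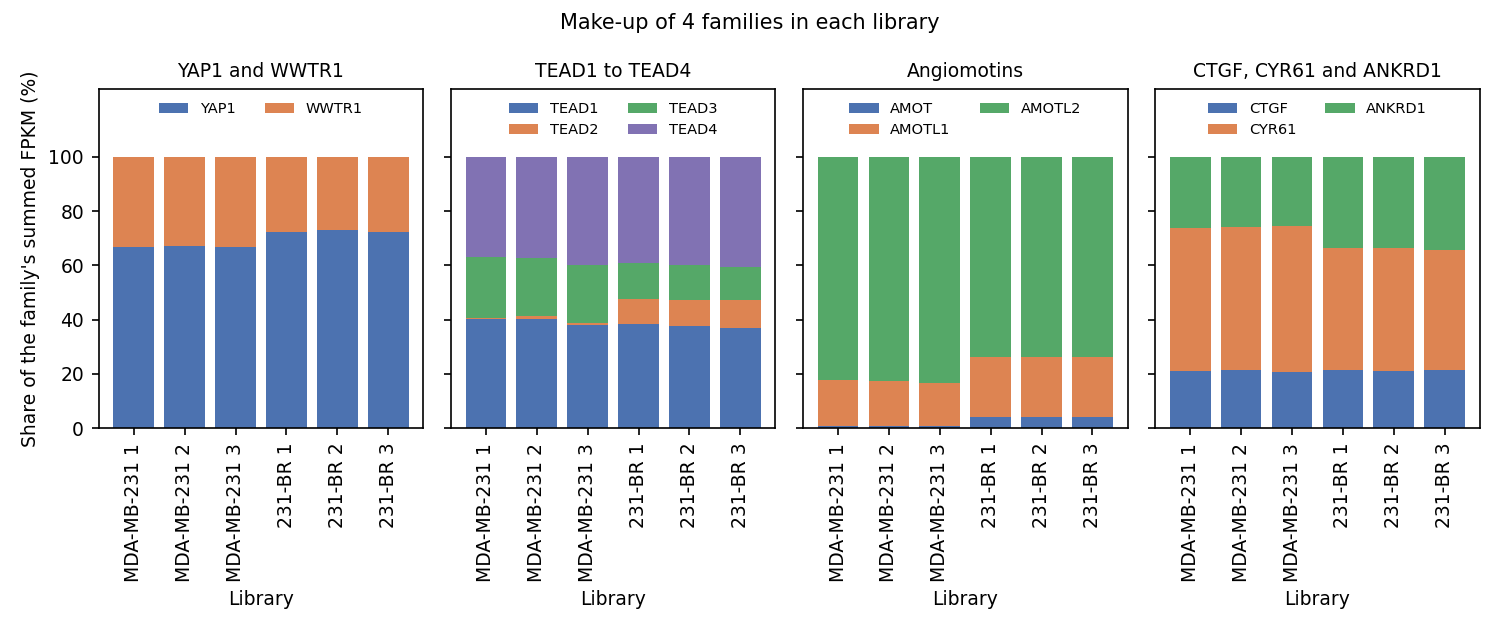
Share of each gene in the summed FPKM of its family, as stacked bars from 0 to 100%, with 1 bar per library. In 231-BR libraries YAP1 held 72.4% to 73.2% of the pair with WWTR1, TEAD2 held 9.24% to 10.2% of the TEAD sum, and ANKRD1 held 33.6% to 34.3% of the target sum.

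TEAD1 (chr11:12674591-12944483, plus strand) encodes a transcription factor that carries YAP and TAZ on DNA. Its level was 26.64, 25.68 and 26.14 FPKM in the 231-BR libraries and 31.34, 30.93 and 29.34 FPKM in the MDA-MB-231 libraries. All 3 libraries of 231-BR cells were lower, with means of 26.2 ± 0.480 and 30.5 ± 1.06 FPKM (SD, n = 3 each). TEAD1 fell by 0.22 on the log2 scale (SE 0.034, 95% interval -0.30 to -0.15, adjusted p = 0.00015 by limma).

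TEAD4 (chr12:2959330-3040673, plus strand), a TEAD factor of the same family, was measured at 27.25, 27.25 and 28.68 FPKM in the 231-BR libraries and at 28.87, 28.60 and 30.63 FPKM in the MDA-MB-231 libraries. The groups overlapped, since 231-BR replicate 3 lay above MDA-MB-231 replicate 2. The means were 27.7 ± 0.826 and 29.4 ± 1.10 FPKM (SD, n = 3 each), and the log2 fold change of -0.08 (95% interval -0.16 to -0.00077) did not pass the test (adjusted p = 0.062 by limma). Without 231-BR replicate 3 the log2 fold change was -0.11 and passed it, and it also passed under median-of-ratios scaling (-0.16) and quantile normalization (-0.13). The ratio of TEAD4 to TEAD1 was 1.06 ± 0.037 and 0.963 ± 0.070, with overlapping libraries and an exact permutation p of 0.2 (0.2 adjusted).

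The rest of the TEAD family moved further. TEAD2 was 6.42, 6.52 and 7.19 FPKM in the 231-BR libraries and 0.44, 0.73 and 0.46 FPKM in the MDA-MB-231 libraries, a rise of 3.43 on the log2 scale (SE 0.15, adjusted p = 1.5e-08 by limma). TEAD3 was 9.20, 8.95 and 8.61 FPKM against 17.55, 16.35 and 16.50 FPKM, a fall of 0.91 (SE 0.044, adjusted p = 2.9e-08). The lines did not overlap in either gene. With a pseudocount of 1 FPKM in place of 0.1 the rise of TEAD2 was 2.32, since its level in MDA-MB-231 cells is low. The summed FPKM of the 4 TEAD genes was 69.5 ± 1.11 in 231-BR cells as against 77.2 ± 0.841 in the parental cells (SD, n = 3 each). TEAD1 and TEAD4 were the main members in both lines, at 37.6% and 39.9% of the sum in 231-BR cells as against 39.5% and 38.0% in the parental cells. TEAD2 made up 9.65% ± 0.483 and 0.704% ± 0.216, and TEAD3 12.8% ± 0.564 and 21.7% ± 0.607.

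The LATS kinases phosphorylate YAP and TAZ. LATS1 (chr6:149658153-149718256, minus strand) was measured at 6.18, 6.12 and 6.28 FPKM in the 231-BR libraries and at 7.95, 7.79 and 6.63 FPKM in the MDA-MB-231 libraries. The groups did not overlap, with MDA-MB-231 replicate 3 closest to the 231-BR libraries. The means were 6.19 ± 0.081 and 7.46 ± 0.720 FPKM (SD, n = 3 each), and LATS1 fell by 0.26 on the log2 scale (SE 0.068, 95% interval -0.41 to -0.11, adjusted p = 0.0057 by limma). Leaving out each library in turn gave -0.34 to -0.21, and quantile normalization gave -0.44. The antisense gene AL358852.1 shares 4.72% of its exonic bases.

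LATS2 (chr13:20973032-21061547, minus strand), itself a known target of YAP in a feedback loop, was measured at 7.40, 7.58 and 7.38 FPKM in the 231-BR libraries and at 7.40, 7.02 and 6.93 FPKM in the MDA-MB-231 libraries. The groups overlapped. The means were 7.45 ± 0.110 and 7.12 ± 0.249 FPKM (SD, n = 3 each), and the log2 fold change of 0.07 (95% interval -0.04 to 0.17, adjusted p = 0.21 by limma) turned its sign under median-of-ratios scaling (-0.012) and quantile normalization (-0.091). LATS2 made up 54.6% ± 0.660 of the summed FPKM of the pair in 231-BR cells as against 48.9% ± 1.95 in the parental cells. The ratio of LATS2 to LATS1 was 1.2 ± 0.032 and 0.959 ± 0.076, with no overlap of the libraries and an exact permutation p of 0.1 (0.125 adjusted).

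AMOTL2 (chr3:134355874-134375479, minus strand) encodes an angiomotin, a junction protein that binds YAP and TAZ and is also a known target of theirs. Its level was 56.50, 56.97 and 56.62 FPKM in the 231-BR libraries and 57.81, 57.60 and 58.05 FPKM in the MDA-MB-231 libraries. The groups did not overlap, yet they were very close, with means of 56.7 ± 0.244 and 57.8 ± 0.225 FPKM (SD, n = 3 each). The log2 fold change of -0.03 (95% interval -0.08 to 0.02, adjusted p = 0.27 by limma) was smaller in size than that of all but 4.44% of the genes tested, and it turned to 0.039 after scaling to the summed FPKM. The pseudogene RPL39P5 on the same strand shares 3.13% of the exonic bases of AMOTL2. Its GGAATG match lies on the strand opposite to the gene, within an annotated exon and beginning 69 bases before the start of the window's transcript (chr3:134374501-134374526), and is therefore read as CATTCC on the gene's own strand, shown in capitals with 10 bases on either side.
AMOTL2: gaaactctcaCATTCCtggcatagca

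The other angiomotins rose. AMOT was 3.25, 3.17 and 3.19 FPKM in the 231-BR libraries and 0.64, 0.57 and 0.51 FPKM in the MDA-MB-231 libraries, a log2 fold change of 2.30 (adjusted p = 1.2e-08 by limma), or 1.42 with a pseudocount of 1. AMOTL1 was 17.04, 17.11 and 16.96 FPKM against 11.82, 11.47 and 10.97 FPKM, a log2 fold change of 0.57 (adjusted p = 3.1e-07). AMOTL2 accordingly made up 73.7% ± 0.0998 of the angiomotin FPKM in 231-BR cells as against 82.8% ± 0.618 in the parental cells, of sums of 76.9 ± 0.272 and 69.8 ± 0.399 FPKM (SD, n = 3 each).

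**Figure D3:**
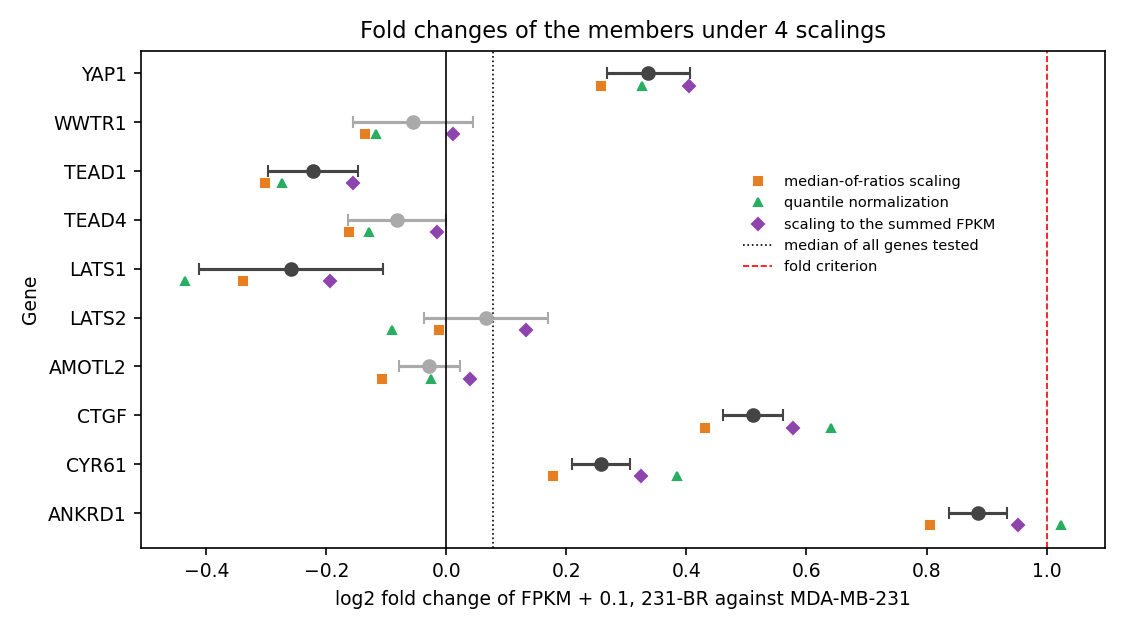
Log2 fold change of FPKM + 0.1 for each gene in 231-BR against MDA-MB-231 cells (circles, dark where called, with 95% intervals) and the same value under 3 other scalings. The circles of ANKRD1, CTGF, YAP1 and CYR61 lie above 0 and those of TEAD1 and LATS1 below 0 under every scaling shown, whereas WWTR1, LATS2 and AMOTL2 change sign with the scaling.

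How libraries are scaled matters for changes this small. Over all genes, quantile normalization moved the median from 0.08 to -0.06 on the log2 scale, a shift of -0.14, and genes higher in 231-BR cells made up 45.6% of all called genes there and 57.4% without it. Relative to the median of all genes, LATS2 stood at -0.01, AMOTL2 at -0.11, WWTR1 at -0.13 and TEAD4 at -0.16, and YAP1 at 0.26, CTGF at 0.43 and ANKRD1 at 0.81. YAP1, TEAD1, LATS1, ANKRD1, CTGF and CYR61 kept their direction and stayed called under all 15 alternatives tried.

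By level per length, the order in 231-BR cells was CYR61, ANKRD1, CTGF, YAP1, AMOTL2, TEAD4, TEAD1, WWTR1, LATS2 and LATS1, and no neighbours in this order had overlapping libraries. In MDA-MB-231 cells it was CYR61, ANKRD1, CTGF, AMOTL2, YAP1, TEAD1, TEAD4, WWTR1, LATS1 and LATS2, in which TEAD1 and TEAD4 overlapped, as did LATS1 and LATS2. YAP1 and AMOTL2 thus changed places between the lines. CYR61 ranked 136 of 17039 genes in 231-BR cells as against 165 in the parental cells, CTGF 263 and 452, and YAP1 1408 and 1789. The kinases were the least abundant, with LATS1 at ranks 7876 and 7030 and LATS2 at 7333 and 7157. Together the 10 genes summed to 1287 to 1299 FPKM in the 231-BR libraries and to 966 to 982 FPKM in the MDA-MB-231 libraries.

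The wider pathway was described with 4 lists chosen by role. Of 25 upstream kinases and scaffolds, 23 were tested, of which 12 rose, 9 fell and 2 did not pass the test. The called share of 91.3% stands beside 77.3% of all genes tested (44.4% higher and 32.9% lower), and the median log2 fold change of 0.13 beside 0.08. Under both median-of-ratios scaling and quantile normalization 8 rose and 9 fell, so which direction held more genes of the list turned with the scaling. Of all 13465 genes tested, 5294 rose and 5142 fell under median-of-ratios scaling, and 4825 rose and 5749 fell under quantile normalization. FAT4, an atypical cadherin, rose from 1.16, 1.09 and 1.17 FPKM in MDA-MB-231 libraries to 5.36, 5.35 and 4.93 FPKM in 231-BR libraries, a log2 fold change of 2.10 (SE 0.072, adjusted p = 3.0e-09 by limma), or 1.54 with a pseudocount of 1. WWC1 (KIBRA), a scaffold that promotes LATS activation, fell from 32.69, 32.08 and 33.12 FPKM to 14.99, 15.02 and 15.00 FPKM, a log2 fold change of -1.12 (SE 0.029, adjusted p = 4.0e-10). These 2 genes passed the stricter criteria, which 6.45% of all genes passed. The LATS cofactor MOB1B (0.67) and the LATS-related kinase STK38 (0.56) rose, and the MST-binding tumour suppressor RASSF1 (-0.87) and MAP4K4 (-0.50), a kinase that acts on LATS in parallel to MST, fell, all values being log2 fold changes.

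Of 20 genes whose proteins bind or turn over YAP, TAZ or LATS, 19 were tested, of which 9 rose, 8 fell and 2 did not pass the test. The called share was 89.5%, beside 77.3% of all genes (44.4% higher and 32.9% lower), and the median log2 fold change was 0.00070, beside 0.08. Under median-of-ratios scaling 8 rose and 9 fell, beside 5294 and 5142 of all 13465 genes tested. Besides AMOT and AMOTL1, the tight junction scaffold TJP1 rose (log2 fold change 0.54). The phosphatase PTPN14, which binds YAP and is also held in the list of targets, fell from 13.19, 12.53 and 12.30 FPKM to 7.39, 7.22 and 6.88 FPKM, a log2 fold change of -0.81 (SE 0.046, adjusted p = 9.7e-08 by limma). The LIM protein WTIP (-0.74) and the casein kinase CSNK1E (-0.69) fell as well. None of this list passed the stricter criteria, which 6.45% of all genes passed. AMOT missed them because its mean was under 1 FPKM in MDA-MB-231 cells. Of the list of other TEAD and VGLL genes, 4 of 6 were in the table and tested. The called share was 50%, beside 77.3% of all genes (44.4% higher and 32.9% lower). None of them passed the stricter criteria, which 6.45% of all genes passed. TEAD2 missed these because its mean was 0.543 FPKM in MDA-MB-231 cells. TEAD2 rose, TEAD3 fell, and the cofactors VGLL3 (log2 fold change -0.11, adjusted p = 0.48 by limma) and VGLL4 (-0.05, adjusted p = 0.31) did not pass the test, of which the sign of VGLL4 turned under 1 of 15 alternatives.

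All 17 genes of the list of other YAP and TAZ targets were tested, of which 11 rose, 5 fell and 1, CRIM1, did not pass the test. The called share was 94.1%, beside 77.3% of all genes (44.4% higher and 32.9% lower), and the median log2 fold change was 0.25, beside 0.08. Past the stricter criteria, which 6.45% of all genes passed, 3 were higher and 2 were lower. IGFBP3, which binds insulin-like growth factors, rose from 13.13, 14.19 and 14.12 FPKM to 70.40, 69.94 and 69.48 FPKM, a log2 fold change of 2.33 (SE 0.035, adjusted p = 1.3e-11 by limma). TGFB2, a ligand of the TGF-beta family, rose by 1.12 and the RNA-binding protein gene RBMS3 by 1.01 on the log2 scale. In the other direction, NT5E, the ecto-5'-nucleotidase CD73, fell from 299.38, 294.10 and 290.70 FPKM to 115.28, 112.68 and 113.64 FPKM, a log2 fold change of -1.37 (SE 0.022, adjusted p = 1.9e-11). The kinase gene NUAK2 fell by 1.45 from 4.30, 4.04 and 3.70 FPKM to 1.46, 1.43 and 1.32 FPKM, and the stress-response gene GADD45A fell by 0.92. The named targets were picked as the 3 largest called rises and the 3 largest called falls, so their moving both ways follows from the choice. Each of them changed by more than ANKRD1 did.

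**Figure D4:**
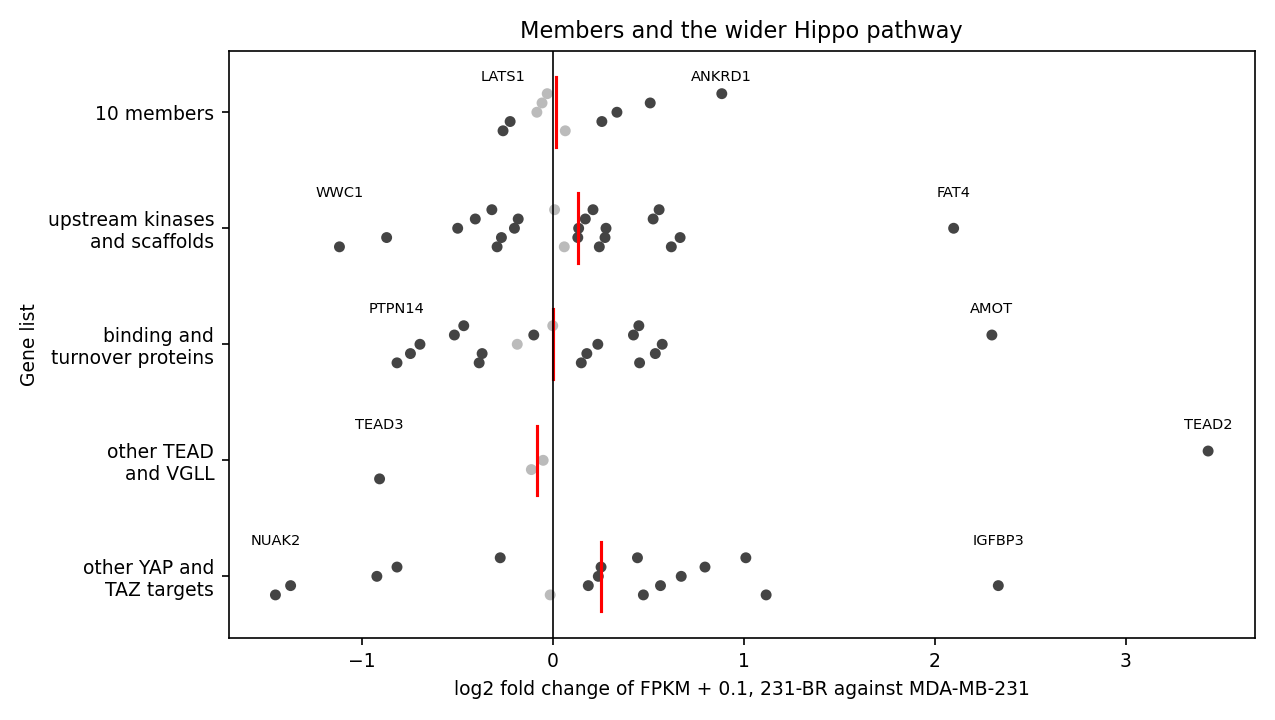
Log2 fold change of every tested gene in the 10 genes described here and in the 4 wider lists, with 1 point per gene and the extreme genes named. A red mark shows the median of each list, and the vertical line shows no change. TEAD2, IGFBP3, AMOT and FAT4 lie above 2, and NUAK2, NT5E and WWC1 lie below -1.

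To place the changes on the chromosomes, each gene was set beside 40 nearby genes in RefSeq gene order with a mean of at least 1 FPKM. These were 20 on either side, except for TEAD4 and LATS2. Both lie near a chromosome end in this order and had fewer neighbours on that side and more on the other. YAP1, with a log2 fold change of 0.34, lay near the median of its neighbours, 0.42, of which 33 of 40 were above 0. With 20 neighbours in place of 40 their median was 0.63. The highest was MMP1, a matrix metalloproteinase gene, at 5.51. ANKRD1 lay 0.59 above the median of its neighbours (0.29), CTGF 0.58 above (-0.07) and CYR61 0.31 above (-0.05). WWTR1 and AMOTL2 showed the reverse: 37 and 35 of their 40 neighbours were above 0, with medians of 0.32 and 0.37, and the genes themselves stood at -0.37 and -0.40 relative to these. Of the 11086 genes placed in this order, 78.8% had a neighbour median no higher than that of WWTR1. The share was 82.7% for AMOTL2 and 86.4% for YAP1. TEAD1 and TEAD4 lay close to neighbours with medians of -0.10 and -0.12, LATS1 lay beside a median of -0.04 and LATS2 beside 0.19. These small medians moved with the number of neighbours: with 20 and 80 neighbours they were -0.23 and -0.20 for TEAD4, -0.072 and -0.065 for LATS1, 0.22 and 0.067 for LATS2, -0.066 and -0.046 for CTGF, and -0.075 and -0.067 for CYR61. The part of position in these results was not tested.

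**Figure D5:**
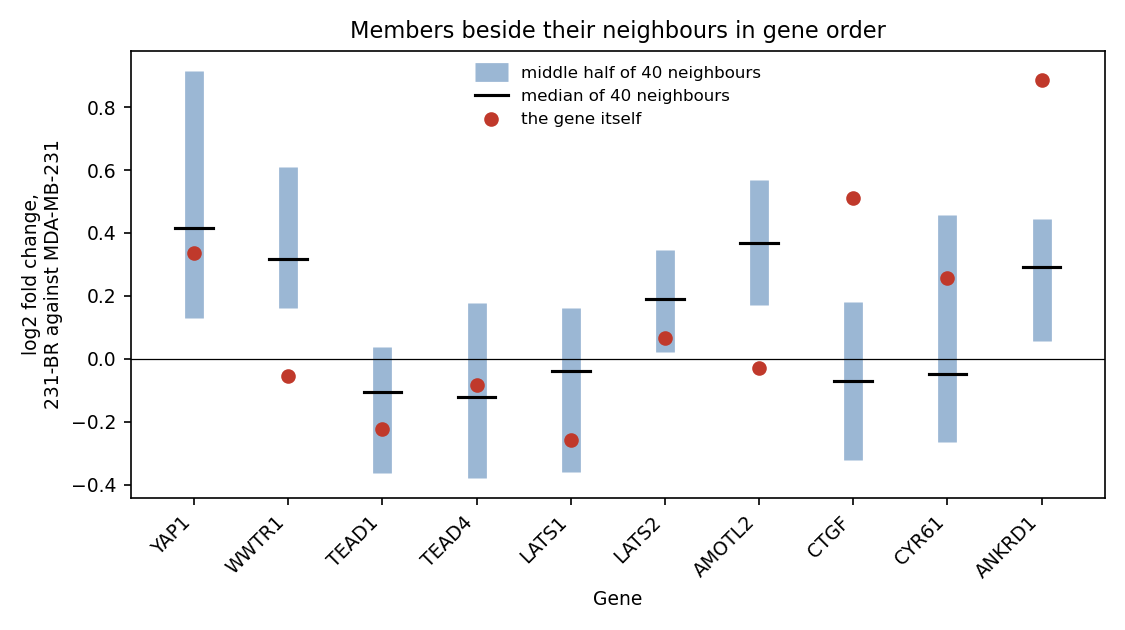
Log2 fold change of each gene (points) beside the median (lines) and interquartile range (boxes) of its 40 neighbours in gene order. YAP1 sits at 0.34 by a neighbour median of 0.42, CTGF and ANKRD1 sit 0.58 and 0.59 above theirs, and WWTR1 and AMOTL2 sit below theirs.

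The genes whose pattern over the 6 libraries was most like that of ANKRD1, by the Euclidean distance of centred log2 values among 11124 genes with a mean of at least 1 FPKM, were ATG16L2 (distance 0.018), CDCA7L (0.039), ROBO4 (0.041), AP1AR (0.041) and G3BP2 (0.044). ATG16L2, for example, was at 7.38 ± 0.053 FPKM in 231-BR cells as against 3.98 ± 0.085 FPKM in the parental cells (SD, n = 3 each). The pattern of LATS1 was most like those of ZFC3H1 (0.074), RAVER2 (0.080), NOM1 (0.085), PGAP1 (0.086) and PCYT1A (0.093). The 6 points come from 2 lines, and the 3 libraries of a line share their source.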

How the data were processed

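Poly(A) RNA of 3 libraries of 231-BR and 3 of MDA-MB-231 cells was sequenced with paired reads of 100 bases. The authors filtered and aligned the reads and deposited the expression of each gene as FPKM, and the submitters' processing notes name HISAT2 2.0.4, Bowtie2 2.2.5 and GRCh38.p12. The annotation release is not given in the sources used here. Read counts were not used here, so the count test of the study's methods (DESeq2) was not run and the depth is unknown. Low values could not show whether there was a step of single reads. The 1238 genes that were above 0 and at or under 0.3 FPKM in every library took 30 distinct values. This is every value above 0 that 2 decimals allow there, and such a step would differ with gene length. The 6 tables of single samples held the values of the joint table. Libraries were grouped by title, because the cell line field counts upward (232-BR and so on).

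A term for the line was fitted to log2(FPKM + 0.1) in limma 3.58.1 (R 4.3.3, eBayes with trend) over the 13465 genes with a mean of at least 0.1 FPKM. Fold changes are on this scale, which understates those of low genes, and the Benjamini-Hochberg adjustment ran over all 13465 genes. The fit was tested on simulated data. Ratios between genes were compared by exact two-sided permutation tests. The median-of-ratios and quantile scalings, other pseudocounts, filters and criteria, the replicate number and leaving out libraries were tried as alternatives. Positions came from GENCODE 29 (GRCh38), promoters and gene order from RefSeq (GRCh38.p14), through Python 3.11.15 and pandas 2.3.3. Proteins were not analysed here.

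The 10 genes and the lists were chosen with earlier results of these data known. The text names all 10, from each wider list the 3 largest called rises and falls among genes with a mean of at least 1 FPKM in either line, and the 5 genes most like the members with the largest rise and fall. VGLL3, VGLL4, CRIM1 and MMP1 were named after their values were seen, as were STK3, STK4, SAV1 and CSNK1D. MAP4K1, DCHS1 and CRB3 were under the filter.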

Additional observations from a re-analysis of the deposited data

How the results depend on the processing

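Of the 10 genes, YAP1, TEAD1, LATS1, ANKRD1, CTGF and CYR61 kept their call and direction under all 15 alternatives. Under median-of-ratios scaling WWTR1 (-0.13), TEAD4 (-0.16) and AMOTL2 (-0.11) also passed the test as lower in 231-BR cells, 5 genes in all, LATS2 turned to -0.012, and 2 other TEAD or VGLL genes were lower. Under quantile normalization WWTR1 (-0.12) and TEAD4 (-0.13) passed it, 4 genes in all, LATS2 turned to -0.091, 3 other TEAD or VGLL genes were lower, and 1 of the 10 genes, ANKRD1 at 1.02, passed the stricter criteria, as it did (1 gene) with an absolute log2 fold change over 0.58. Scaling to the summed FPKM, chosen after seeing the data, turned WWTR1 (0.012) and AMOTL2 (0.039) and brought LATS2 (0.13) past the test. Of all 13465 genes tested, 5973 were called higher and 4433 lower without rescaling. Under median-of-ratios scaling these were 5294 and 5142, under quantile normalization 4825 and 5749, and under scaling to the summed FPKM 6545 and 3844. Higher genes made up 50.7% of all calls under median-of-ratios scaling and 63.0% under that to the summed FPKM. The share of all genes past the altered stricter criteria is not given here. The cause of these changes was not tested.

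Leaving out single libraries gave -0.11 to -0.052 for TEAD4. The replicate numbers did not pair the libraries, with correlations of 0.087, -0.040 and -0.106 between the deviations of same-numbered libraries, and with the replicate block TEAD4, at -0.082, passed the test. The ratios between genes kept their direction under the alternatives tried, and with 3 libraries against 3 their test could not reach 0.05. The number of reads is unknown, so no counting error can be given, which matters most for the genes under 1 FPKM such as TEAD2 and AMOT in MDA-MB-231 cells.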

Other observations

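Some paralogs of the pathway moved in opposite directions between the lines. The MST kinases split: STK3 (MST2) rose from 9.88, 10.00 and 10.48 FPKM in MDA-MB-231 libraries to 11.58, 12.29 and 12.15 FPKM in 231-BR libraries, a log2 fold change of 0.24 (adjusted p = 0.00041 by limma), and STK4 (MST1) fell from 31.01, 30.84 and 29.57 FPKM to 25.32, 23.35 and 24.63 FPKM, a log2 fold change of -0.32 (adjusted p = 2.2e-05). Their scaffold SAV1, at 13.4 ± 0.894 FPKM in MDA-MB-231 and 19.4 ± 0.633 FPKM in 231-BR cells (SD, n = 3 each), rose by 0.53 on the log2 scale (adjusted p = 4.9e-06 by limma). Of the casein kinases, CSNK1D rose by 0.46 where CSNK1E fell by 0.69 on the log2 scale. STK3, STK4, SAV1, CSNK1D and CSNK1E kept these directions and stayed called under all 15 alternatives. STK3, STK4, SAV1 and CSNK1D were picked after their values were seen.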
